A study of Mus musculus with 16 samples.

Results

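The 4 libraries described here are the untreated baseline of a mouse lactation study: NCD control, the group on the NCD diet with the control treatment. They were taken by that group label and make up 4 of the 16 libraries of the series. RNA came from the whole inguinal mammary gland, in mid-lactation by the title and with an age label of postnatal day 16, which does not say whether it is the age of the animal or time since birth. The other 12 libraries, 4 per group, are NCD metformin, HFD control and HFD metformin, where HFD is a high fat diet given in lactation and metformin a drug that lowers blood glucose. No genotype, strain or animal number is given for any of the 4 groups used, so libraries of a group may be technical repeats. The p-values then speak only of spread among these libraries, which may be technical. The 4 libraries held 28722179 to 31732131 estimated counts over 22196 genes, against 8649318 to 39156650 in the other 12. They are called NCD control 1 to 4, in accession order.

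The lactating gland is built of alveoli, sacs of secretory luminal cells that make casein, whey protein, lactose and fat globules. Contractile myoepithelial cells wrap them, and fat, vessels, connective tissue and immune cells lie between. Prolactin, acting through its receptor and the transcription factor STAT5, keeps milk genes on, and plasma cells in the gland supply the IgA of milk. In bulk RNA fewer cells of a type and less RNA per cell cannot be told apart.

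NCD control 3 stood apart in its skeletal muscle markers, 16 genes such as Acta1 (muscle actin), Ckm (muscle creatine kinase) and Tnnt3 (fast troponin T). Their summed level was 17.4 TPM in NCD control 1, 9.35 TPM in NCD control 2, 1570 TPM in NCD control 3 and 4.62 TPM in NCD control 4. TPM is a relative transcript level per effective coding length, and it sums to the same total in every library. The highest of the other 12 libraries held 45.1 TPM. Counts of variable and called genes, and the genes that this library moves most, are given with and without it. Pearson correlations of log2 CPM across 10513 genes, which are not independent replicates, were 0.908 to 0.925 for the 3 pairs with NCD control 3 and 0.963 to 0.980 for the other 3 pairs. As a check for repeat deposits of a library, pairs of NCD control libraries gave a chi-square per degree of freedom of 12.8 to 65.7, taking reads as independent molecules, so none was counted as a repeat.

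Milk protein genes filled most of the transcriptome. The 5 caseins took 50.5 ± 1.52% of TPM (SD, n = 4) and 12 whey and other soluble milk proteins took 30.5 ± 1.24%, so that 17 genes held 81.0 ± 0.987%. By library the share of these 17 genes was 80.6%, 81.9%, 79.8% and 81.8% for NCD control 1 to 4. In each library 3 genes were enough to reach 50% of TPM, and 121 to 181 genes reached 90%. The 10 most abundant genes held 81.2 ± 0.953% of TPM and the 30 most abundant 85.7 ± 0.765%. As a share of estimated counts, which favours long genes, the milk protein share was 71.0 ± 1.17%. Below these genes the transcriptome was broad. Genes listed at 1 TPM or more numbered 8580, 8289, 8714 and 8584 in NCD control 1 to 4, of which 7780 were shared by all 4 libraries, and 23 genes reached 1000 TPM in each.

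Wap, whey acidic protein, was the most abundant gene at 249835, 273247, 258207 and 240971 TPM in NCD control 1 to 4, a mean of 25.6 ± 1.37% of all TPM. It lies at chr11:6635482-6638637 on GRCm38 in the GENCODE M21 annotation. Its coding length of 405 bases leaves an effective length of 120 bases, so its TPM depends strongly on that correction. By counts Wap held 9.46 ± 0.879%, behind Csn1s1, Csn2, Csn1s2a and Trf. Per base of full coding length Wap was again first, at 17.7%.

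The caseins, which carry the calcium and phosphate of milk in micelles, followed. Csn1s2a was the steadiest, at 139879, 138891, 138490 and 142523 TPM, a coefficient of variation of 1.3%. Csn2, beta-casein, held 116019, 111933, 111044 and 142859 TPM, and Csn1s1, an alpha-S1 casein, held 85660, 82878, 81165 and 103282 TPM. Both were highest in NCD control 4, while the other 3 libraries lay close together. Csn1s2b went the other way, with 117993, 115660, 113670 and 92832 TPM, lowest in NCD control 4. Csn3, kappa-casein, which coats the micelle, varied little, at 45436, 48083, 46907 and 44603 TPM. All 5 genes lie on chromosome 5 between 87666208 and 87932665, and the other genes listed between them were far lower at this depth. Prr27, between Csn1s2b and Csn3, held 0.0441 to 0.466 TPM, and Odam, an enamel-associated protein gene next to it, held 1.07 to 1.88 TPM. Of 22 genes from Sult1d1 to Jchain on this stretch, 13 were under 1 TPM in all 4 libraries and 8 were listed at 0. Over all 22196 genes, 9446 reached 1 TPM in any of the 4 libraries, so most genes lay below it in all 4. The share listed at 0 was not counted over all genes.

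Upstream sequences of the most abundant genes are shown because milk genes are known targets of STAT5, whose recognition letters are TTCNNNGAA. The windows are the 250 bases before the RefSeq start on GRCm38.p6, 5′ to 3′ on the gene's strand, and capitals mark a match. The motif is its own reverse complement, so both strands were searched. Csn2 lies at chr5:87699426-87699675 on the minus strand, Csn1s1 at chr5:87665958-87666207 on the plus strand, Glycam1 at chr15:103565082-103565331 on the minus strand and Wap at chr11:6638650-6638899 on the minus strand.
Csn2: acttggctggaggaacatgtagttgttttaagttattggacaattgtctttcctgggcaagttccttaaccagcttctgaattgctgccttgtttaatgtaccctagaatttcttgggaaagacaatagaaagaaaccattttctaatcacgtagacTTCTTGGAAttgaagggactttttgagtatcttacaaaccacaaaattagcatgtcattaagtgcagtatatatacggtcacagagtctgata
Csn1s1: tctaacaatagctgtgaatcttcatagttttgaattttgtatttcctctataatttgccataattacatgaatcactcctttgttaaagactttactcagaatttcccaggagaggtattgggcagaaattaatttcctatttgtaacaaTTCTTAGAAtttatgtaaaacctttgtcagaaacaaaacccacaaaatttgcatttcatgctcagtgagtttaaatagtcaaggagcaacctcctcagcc
Glycam1: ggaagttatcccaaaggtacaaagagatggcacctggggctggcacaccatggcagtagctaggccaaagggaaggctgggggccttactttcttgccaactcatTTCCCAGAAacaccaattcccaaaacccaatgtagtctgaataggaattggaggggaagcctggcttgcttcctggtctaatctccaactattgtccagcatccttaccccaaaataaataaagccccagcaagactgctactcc
Wap: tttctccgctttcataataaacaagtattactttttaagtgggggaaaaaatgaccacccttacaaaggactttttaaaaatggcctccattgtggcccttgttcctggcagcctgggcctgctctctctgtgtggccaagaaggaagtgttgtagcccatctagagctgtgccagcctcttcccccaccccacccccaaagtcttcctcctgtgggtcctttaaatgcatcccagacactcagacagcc
The match began 93 bases before the start in Csn2, 100 bases before it in Csn1s1 and 145 bases before it in Glycam1, a mucin-like milk protein gene. The window of Wap held none, nor did those of Csn1s2a, Lalba and Wfdc18. Of the 30 most abundant genes, 18 had a window and 4 of these held a match, the last being Nupr1. Of all 32851 windows 7.02% held one. A match of letters is a description and not a measured binding site.

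Among whey proteins, Trf (transferrin, which carries iron) held 17022 to 19259 TPM and Lalba (alpha-lactalbumin, the regulatory subunit of lactose synthase) 11540 to 15428 TPM, highest in NCD control 4. Wfdc18, a relative of Wap with the same protein domain, held 12845, 10997, 9431 and 8497 TPM, highest in NCD control 1. Glycam1 held 5240 to 6324 TPM, within the 2317 to 11917 TPM of the other 12 libraries, which span 3 groups. Folr1, a folate-binding protein, followed with 635 to 747 TPM, while Cel, a milk lipase, held 213 to 298 TPM and lactoferrin (Ltf) 209 to 255 TPM. Of 21 listed genes of the Wap family, 7 reached 1 TPM in all 4 libraries, near the 35.1% of all 22196 genes that did so. Wfdc3 followed Wap and Wfdc18 with 3151 to 4397 TPM. Wfdc2 was uneven, with 41.2, 17.98, 27.5 and 111 TPM, and so was the protease inhibitor Slpi with 53.2, 18.7, 42.5 and 14.1 TPM. The other 12 libraries held 3.43 to 13.8 TPM of Slpi. It was called higher against the other 3 groups (log2 fold change 1.70, SE 0.29, adjusted p = 0.0147 in edgeR), though not under every setting.

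**Figure D1:**
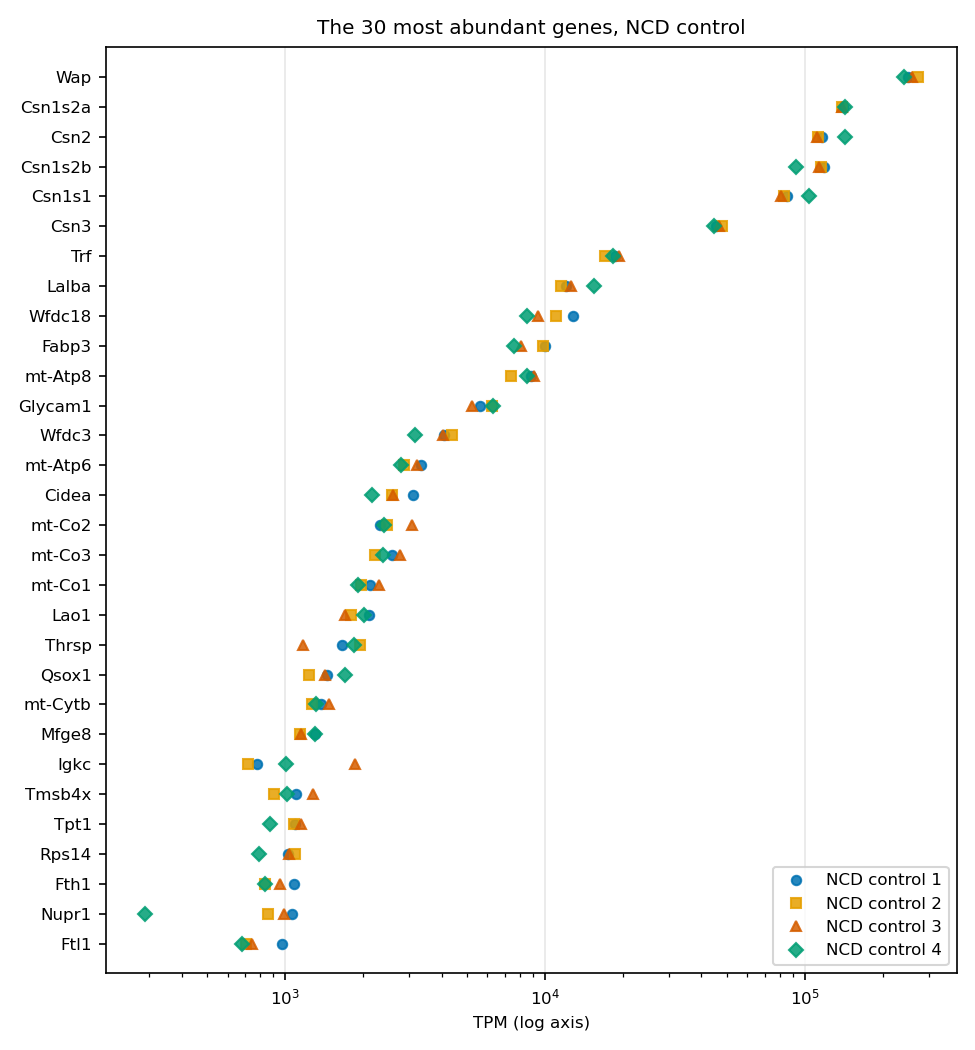
TPM of the 30 most abundant genes on a log axis, one symbol per NCD control library. Wap and the 5 caseins lie between 44603 and 273247 TPM, and the symbols of Nupr1 spread from 289 to 1067 TPM.

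Genes of the milk fat globule, the lipid droplet wrapped in cell membrane that carries milk fat, took 1.44 ± 0.147% of TPM. Fabp3, a fatty acid carrier, led with 10023, 9825, 8071 and 7617 TPM. Cidea, a lipid droplet protein, held 2164 to 3094 TPM, Mfge8 (lactadherin) 1138 to 1308 TPM and Plin2, the droplet coat protein, 304 to 467 TPM. Fabp3, Cidea and Plin2 were each highest in NCD control 1 and lowest in NCD control 4. Btn1a1, butyrophilin, held 252, 274, 268 and 452 TPM, with NCD control 4 highest, and its partner Xdh held 221 to 245 TPM.

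Fatty acid and triglyceride synthesis, 31 genes, took 0.388 ± 0.045% of TPM. Thrsp, a lipogenic regulator, held 1656, 1940, 1171 and 1837 TPM, lowest in NCD control 3. Olah, the thioesterase that releases medium-chain fatty acids for milk, held 621 to 839 TPM and Lpl, the lipase that draws fat from blood, 183 to 194 TPM. Fasn, fatty acid synthase, held 132, 163, 136 and 249 TPM, highest in NCD control 4. In estimated counts, which favour long genes, the list's share was 1.15%.

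Lactose and cholesterol synthesis took far smaller shares, 0.0181 ± 0.00315% and 0.0182 ± 0.00456% of TPM. B4galt1, the catalytic subunit of lactose synthase, held 91.4, 93.8, 85.4 and 141 TPM, and the glucose transporter Slc2a1 held 16.1 to 26.7 TPM. Both were highest in NCD control 4. Fdps, a cholesterol pathway enzyme, held 30.4, 31.8, 43.3 and 50.8 TPM, and Insig1, its sterol sensor, 13.8, 19.8, 29.0 and 37.2 TPM. Of 24 genes of the cholesterol list 1 had an SD over 1 on the log2 scale, and the list's median SD was 0.41.

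Ribosomal proteins and the mitochondrial genome were the next largest groups after milk. Cytosolic ribosomal proteins, 87 genes, took 2.59 ± 0.151% of TPM and the 13 mitochondrial protein genes 2.32 ± 0.196%. With milk proteins set aside they held 13.7 ± 0.762% and 12.2 ± 0.449% of the remaining TPM. Among mitochondrial genes mt-Atp8 held 7382 to 9081 TPM on an effective length of 25 bases, and mt-Co1, a cytochrome oxidase subunit, 1902 to 2304 TPM. Nuclear respiratory chain subunits, 85 genes, took 0.580 ± 0.0530%, led by Uqcr11 at 298 to 401 TPM.

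Translation factors took 0.250 ± 0.0110% of TPM, with Eef1a1 at 616 to 742 TPM, and endoplasmic reticulum and early secretion genes 0.187 ± 0.0150%, led by Ssr4 of the translocon at 275 to 391 TPM. Hspa5, the main chaperone of that compartment, differed more between libraries, with 31.0, 30.7, 146 and 65.9 TPM, highest in NCD control 3. In CPM the gap was smaller, at 132, 145, 252 and 195. Slc34a2, a phosphate transporter, led the transport genes at 122 to 213 TPM. Lao1, an amino acid oxidase secreted in mouse milk, held 1699 to 2106 TPM, and Qsox1, which forms disulfide bonds in secreted proteins, 1233 to 1702 TPM.

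In the prolactin pathway the receptor itself was low. Prlr held 2.07, 2.87, 2.13 and 2.26 TPM. Stat5a held 49.3, 40.8, 19.4 and 49.1 TPM, lowest in NCD control 3, and in CPM 79.8, 75.4, 54.1 and 84.0. Stat5b held 6.79 to 11.2 TPM. The targets Socs2 and Cish, which damp the signal, held 8.999 to 11.8 TPM and 6.86 to 13.3 TPM. Elf5, the transcription factor of alveolar fate, was listed at 15.7, 37.8, 16.7 and 2.59 TPM. The size of that spread is uncertain. A listed transcript of the same coding length of 762 bases, with no gene in the annotation used, held 539, 518, 527 and 564 counts. Elf5 itself held 694, 1648, 699 and 112 counts. Together they gave 1233, 2166, 1226 and 676 counts, still highest in NCD control 2 and lowest in NCD control 4. Cell cycle genes, markers of dividing cells, took 0.00230 ± 0.000211% of TPM, with Mki67 at 0.635 to 1.13 TPM.

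Several metal binding, stress and signalling lists differed between the libraries. Antioxidant and metal binding genes took 0.432%, 0.305%, 0.380% and 0.300% of TPM, with the metallothionein Mt1, which binds zinc and copper, at 749, 381, 567 and 385 TPM and Mt2 at 578, 215, 472 and 212 TPM. Their effective lengths were 34.1 and 30.2 bases. In CPM, without that correction, Mt1 held 52.9, 42.2, 48.1 and 46.9, with no such gap, and Mt2 held 47.1, 19.2, 40.2 and 18.3, higher in NCD control 1 and 3. Immediate early genes took 0.0781%, 0.0657%, 0.103% and 0.126%, highest in NCD control 4. Histones took 0.107 ± 0.0197% and proteasome and ubiquitin genes 0.124 ± 0.0192%, both highest in NCD control 3. Glycolysis and citric acid cycle genes took 0.130 ± 0.0227%, also highest there, and that list holds Aldoa, which muscle makes in quantity. Cytoskeleton genes took 0.221 ± 0.0249%, cytosolic chaperones 0.0376 ± 0.00383%, aminoacyl-tRNA synthetases 0.0208 ± 0.000991% and circadian clock genes 0.00776 ± 0.00226%.

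**Figure D2:**
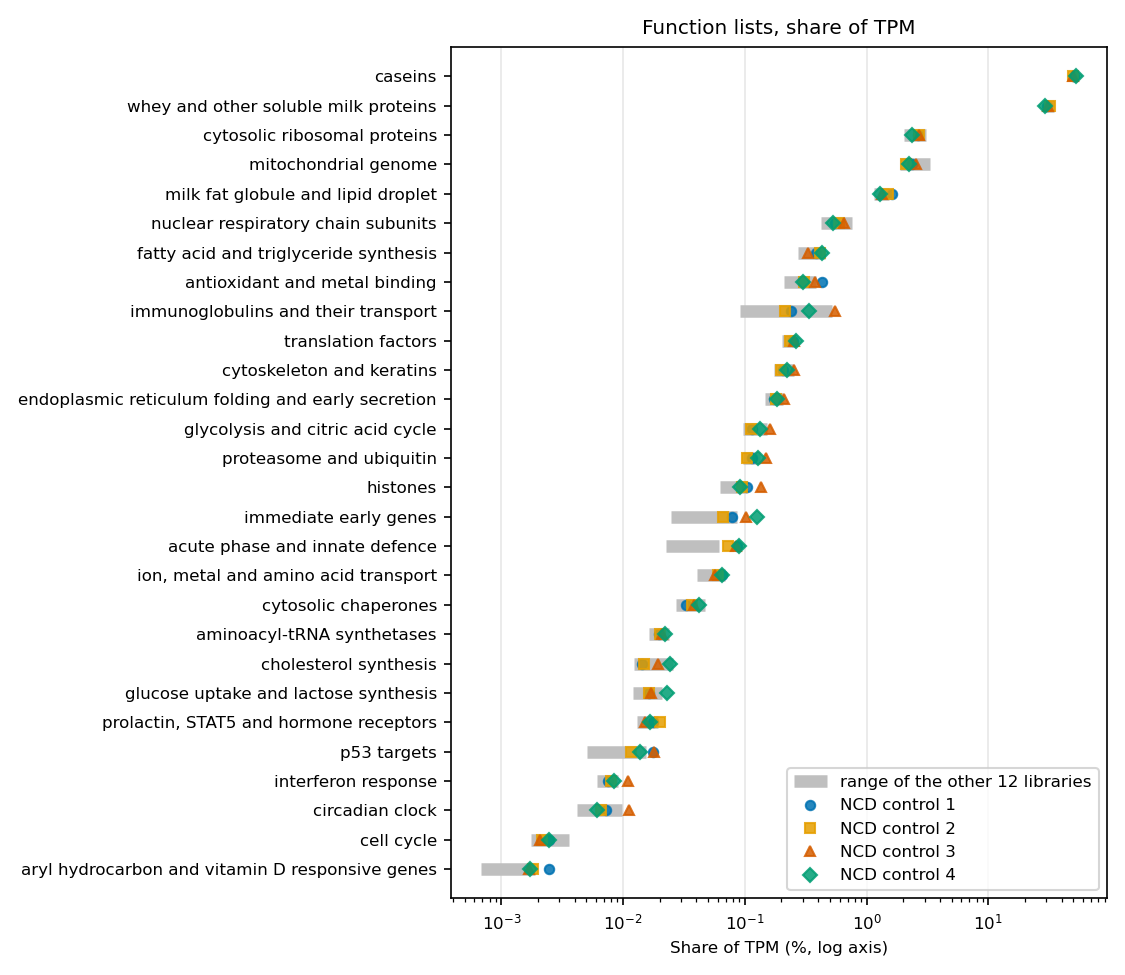
Share of TPM of each function list on a log axis, with 1 symbol per NCD control library and a grey bar for the range of the other 12 libraries. Caseins and whey proteins sit far to the right, and acute phase genes are the list whose 4 symbols all lie above the bar.

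Among cell type lists the 13 alveolar markers had the largest sum, 378921 to 400199 TPM, and nearly all of it came from milk genes such as Wap, Csn2 and Lalba. With milk proteins set aside the alveolar list held 0.169 ± 0.0134% of the remaining TPM. On the same measure brown adipocyte markers held 1.38 ± 0.175%, adipocyte markers 1.34 ± 0.126%, B and plasma cell markers 0.935 ± 0.396% and red cell markers 0.363 ± 0.281%. The brown adipocyte and adipocyte lists are led by Cidea and Thrsp, which also stand in the milk fat and lipid synthesis lists. Other epithelial genes were Epcam, an epithelial adhesion protein, at 76.9 to 108 TPM, and the transcription factor Ehf at 46.2 to 77.6 TPM. Myoepithelial markers summed to 203 to 256 TPM, with Acta2, smooth muscle actin, at 56.5, 48.2, 68.8 and 66.4 TPM and Krt14, a basal keratin, at 9.88 to 12.5 TPM. Hormone-sensing luminal markers summed to 30.8 to 40.2 TPM, and the oestrogen receptor gene Esr1 held 0.654 to 1.39 TPM.

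Fibroblast and matrix markers summed to 92.9, 79.2, 94.3 and 93.3 TPM, with Col3a1, a fibrillar collagen, at 14.6 to 17.2 TPM. Endothelial markers summed to 31.2 to 49.0 TPM, and Pecam1, an adhesion protein of vessel walls, held 2.39 to 3.68 TPM. Pericyte and vascular smooth muscle markers summed to 6.06, 5.21, 19.9 and 6.95 TPM. Des alone, a filament protein that skeletal muscle also makes, held 15.2 TPM in NCD control 3 and 0.200 to 0.380 TPM in the others.

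Adipocyte markers showed a split within the list. Thrsp led the 18 genes, and the list summed to 2951 TPM in NCD control 3 and to 2257 to 2507 TPM in the others. The fat cell hormone Adipoq held 7.002, 9.12, 78.2 and 9.84 TPM, Cfd (adipsin) 38.4, 50.2, 404 and 75.4 TPM and Car3 12.7, 15.4, 160 and 20.7 TPM. For each of them NCD control 3 was highest, and the other 3 libraries lay within 2-fold of each other. In that library 12 of 17 adipocyte markers whose mean reached 1 CPM lay more than 2-fold above each other NCD control library. Ucp1, the heat-producing protein of brown fat, was listed at 0 TPM in NCD control 1 and 4, at 0.0173 TPM in NCD control 2 and at 4.72 TPM in NCD control 3. Cidea, also a brown fat marker, was spread evenly and made up nearly all of the brown adipocyte sum.

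Immune markers were led by plasma cells. Igkc, the kappa light chain, held 779, 718, 1855 and 1011 TPM, and Igha, the heavy chain of IgA, 347, 294, 853 and 478 TPM. Jchain, which links IgA into dimers, held 86.1, 85.6, 230 and 139 TPM. All 3 were highest in NCD control 3, then NCD control 4. Pigr, the epithelial receptor that carries IgA into milk, stayed within 250 to 313 TPM. Cd74, of antigen presentation, held 77.5 to 101 TPM and C1qa, of macrophages, 13.8 to 17.2 TPM. T and NK cell markers summed to 2.43 to 4.92 TPM, and neutrophil markers to 2.42 to 6.83 TPM with 1 of 8 genes at 0 counts in all 4 libraries. Mast cell markers summed to 2.34 to 3.66 TPM and Schwann cell and nerve markers to 34.1 to 43.9 TPM. Lymphatic endothelium summed to 1.44 to 2.48 TPM and lymph node stroma to 0.888 to 2.28 TPM. Keratinocyte and skin markers summed to 14.5, 5.98, 13.5 and 5.82 TPM, higher in NCD control 1 and 3. Red cell markers, from blood in the tissue, ranged from 265 TPM in NCD control 4 to 1547 TPM in NCD control 3.

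**Figure D3:**
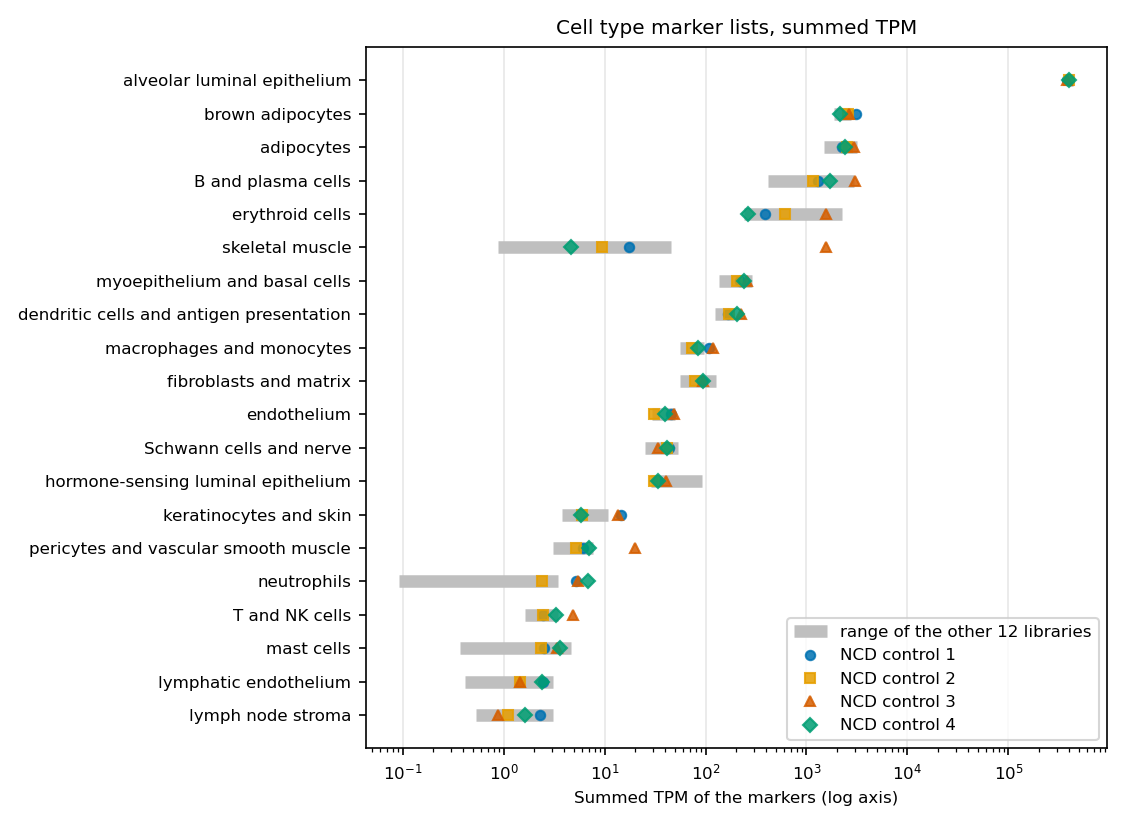
Summed TPM of each cell type marker list on a log axis, with 1 symbol per NCD control library and a grey bar for the range of the other 12 libraries. For skeletal muscle NCD control 3 lies at 1570 TPM, to the right of the bar that ends at 45.1 TPM.

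Spread between the 4 libraries was measured as the SD of log2 CPM, counts relative to the scaled library size, at a prior count of 2. Over the 10513 genes whose mean reached 1 CPM the median SD was 0.185. Without NCD control 3, over the genes whose mean in the other 3 libraries reached 1 CPM, it was 0.159. For the other groups it was 0.212 to 0.226. By the common biological coefficient of variation, a single measure of spread over all genes of a group, NCD control was instead the highest. That measure was 0.262 there, against 0.198 to 0.241 elsewhere. Other groups also held shallow libraries, down to 8649318 counts, and the effect of depth on these comparisons was not tested. An SD over 1 was found for 270 genes, or 2.57%, and an SD under 0.1 for 1733 genes. The other groups had 130 to 249 genes with an SD over 1. Of the 270 genes 214 were highest in NCD control 3. Without that library 115 genes had an SD over 1, counted anew among genes whose mean in the other 3 reached 1 CPM. NCD control 3 lay more than 2-fold above each other NCD control library for 269 genes, against 4 to 23 genes for the other 3 libraries. The genes named here were chosen by their spread, so no test of it is given.

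Skeletal muscle genes had the largest spread. Myh4, a fast myosin heavy chain, held 0.26 CPM in NCD control 1, 1720 CPM in NCD control 3 and 0 CPM in NCD control 2 and 4, an SD of 6.99. Atp2a1, the calcium pump of muscle, held 2.51, 0.715, 767 and 0.0895 CPM. Tnnt3 held 1.90, 1.07, 331 and 0.0298 CPM, and Ckm 2.31, 1.53, 448 and 0.119 CPM. Of the 24 genes with the largest SD 22 were highest in NCD control 3, the exceptions being Ighv13-2 and Ide. For 11 of 16 muscle markers NCD control 4 lay more than 2-fold below each other library, as it did for 61 of all 10513 genes. Its counts of muscle genes were few, for example 1 for Tnnt3 and 4 for Ckm, near the floor of 3 counts. Tpm1 and Aldoa, also used in other cells, held 243 CPM and 522 CPM in NCD control 3, against 33.4 to 37.6 CPM and 122.8 to 134 CPM in the others. Without NCD control 3 the SD of Tpm1 went from 1.39 to 0.0857 and that of Aldoa from 1.01 to 0.0660.

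Among genes whose mean reached 50 CPM, Pck1, which makes glycerol for fat storage in fat cells, held 10.8, 13.0, 192 and 9.96 CPM, and its SD of 2.05 became 0.197 without NCD control 3. G0s2, an inhibitor of fat breakdown, went the other way, with 39.7, 119, 9.07 and 161 CPM, lowest in NCD control 3, with an SD of 1.87, or 1.06 without that library. The small GTPase gene Rab30 held 269, 127, 350 and 52.8 CPM, and Got1, an aspartate aminotransferase, 87.8, 47.8, 148 and 28.5 CPM. Sgk1, a kinase responsive to steroid hormones, held 218, 153, 251 and 75.3 CPM. In these last 3 genes NCD control 3 was highest and NCD control 4 lowest, and the SD of Rab30 was 1.23, or 1.18 without NCD control 3 and 0.759 without NCD control 4. For Sgk1 the SD went from 0.775 to 0.365 without NCD control 4.

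NCD control 4 stood apart for another set. Its title number was 14, against 1, 2 and 3 for the other NCD control libraries, and a link to that number was not tested. Egr1 and Ier2, immediate early genes that rise within minutes of a stimulus, held 62.9, 84.4, 79.4 and 281 CPM and 39.2, 60.5, 54.6 and 157 CPM. Fos held 73.9, 92.1, 111 and 216 TPM. The stress response gene Nupr1 was lowest there, at 108, 89.3, 94.9 and 29.4 CPM, and so was Ucp3, a mitochondrial carrier gene, at 231, 143, 150 and 57.2 CPM. Without NCD control 4 the SD of Egr1 fell from 0.97 to 0.22 and that of Nupr1 from 0.87 to 0.14.

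**Figure D4:**
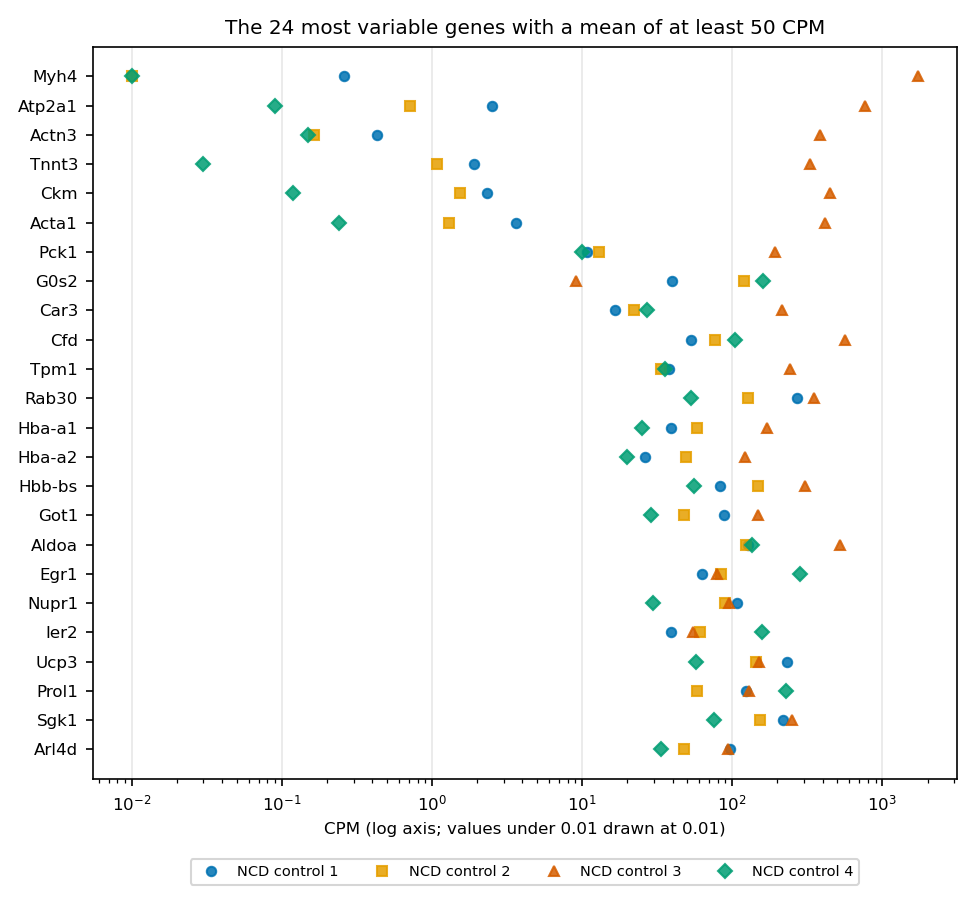
CPM of the 24 genes with the largest SD among those whose mean reached 50 CPM, on a log axis with 1 symbol per NCD control library. NCD control 3 lies far to the right for the 6 genes at the top, Myh4 to Acta1, and NCD control 4 lies apart for Egr1, Nupr1 and Ier2.

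Some genes stayed variable whichever library was left out. Immunoglobulin variable genes led this set, with 8 of 24, for example Ighv13-2 at 9.002, 11.8, 0.0634 and 0 CPM. Genes of the skeletal muscle list gave 6 of 24, and Myh8, a perinatal myosin, was high in NCD control 1 and 2 at 7.24 and 3.54 CPM and low in the others at 0.0317 and 0.0895 CPM. Cyp24a1, which breaks down vitamin D, held 6.61, 0.26, 14.1 and 0.597 CPM, high in NCD control 1 and 3. The major urinary protein genes Mup7, Mup8, Mup13 and Mup22 were each highest in NCD control 3, Mup22 at 1.18, 4.97, 85.3 and 20.2 CPM. Values of Mup and immunoglobulin genes are uncertain, since near-identical copies share reads. The same holds for Eif3j2, which has a close copy in Eif3j1, and Ift46 was listed at 0 CPM in NCD control 1 and 4 and at 3.41 and 3.49 CPM in the others. Ide, insulin degrading enzyme, was listed at 492, 456, 89 and 0 counts. A transcript of the same coding length of 2964 bases without a gene held 492, 456, 818 and 726 counts. Another such transcript held 437, 315, 263 and 0 counts. Ide gave 984, 912, 907 and 726 counts with the first alone, and 929, 771, 352 and 0 counts with the other alone. The listed spread of Ide is therefore uncertain.

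Of the genes whose mean reached 50 CPM, Sf3b2, a splicing factor, had the smallest spread, at 84.2, 83.6, 82.9 and 84.7 CPM and an SD of 0.013. Myh11, smooth muscle myosin, held 246, 242, 248 and 247 CPM, with an SD of 0.015 against 0.35 to 0.50 in the other 3 groups. Stxbp2, Plod3, H3f3a, Prelid1, Stard10, Chmp4b, Eef2, Eif3h, Aup1 and Ppp1ca completed the 12, with SD up to 0.031. Such low values were picked from 833 genes and depend on the scaling.

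The untreated gland was then compared with the other 3 groups. The contrast took NCD control minus the mean of NCD metformin, HFD control and HFD metformin and was tested by quasi-likelihood in edgeR, with p-values adjusted by Benjamini-Hochberg. Of 12506 genes tested 103 were called at an adjusted p under 0.05, or 0.824%, with 77 higher (0.616%) and 26 lower (0.208%). An unadjusted p under 0.05 was found for 1653 genes, so genes not called may still differ. Scaling by library size alone, in place of TMM, called 339 genes, 330 higher and 9 lower. The 4 NCD control libraries did not overlap the other 12 for 28 of the 103. Calls favour such genes, and non-overlap was not counted over all genes tested. Without NCD control 3 34 genes were called, 31 of them shared.

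The 12 called genes with the largest fold change were all muscle genes, led by Myh1 at a log2 fold change of 7.94 (SE 1.10, adjusted p = 0.00329), higher in 3 of 4 libraries than the mean of the other 12. Of 15 muscle markers tested 12 were called higher, beside 0.616% of all genes tested. Without NCD control 3 only 1 was called, Myh1 at 4.32 (adjusted p = 0.0266 in edgeR). Actn3, Ckm, Mybpc2, Ryr1 and Ttn then turned to negative fold changes that were not called.

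The 10 genes called under all 24 other settings, chosen after their values were seen, were 8 higher and 2 lower in NCD control. Of them 9 did not overlap the other 12 libraries, a trait not counted over all genes tested. Their adjusted p-values in edgeR ran from 7.1e-05 to 0.0140. Prol1, a proline-rich secreted protein gene at chr5:88317312-88328814, the same stretch as the caseins, was highest in NCD control, at 124, 57.9, 130 and 228 CPM. It held 13.7 ± 11.8 CPM in NCD metformin, 3.92 ± 2.10 CPM in HFD control and 1.61 ± 1.49 CPM in HFD metformin (SD, n = 4). The log2 fold change was 4.97 (SE 0.45, adjusted p = 7.1e-05), and no other library exceeded 28.7 CPM.

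Another 7 genes of this set were higher in NCD control. Gsta3, a glutathione transferase, held 34.4, 38.4, 28.7 and 42.2 CPM against 1.61 to 16.8 CPM in the other 12, a log2 fold change of 2.12 (SE 0.31). Chil1, a chitinase-like secreted protein, held 6.61, 5.20, 5.04 and 3.97 CPM against 0.671 to 2.88 CPM, a change of 1.98 (SE 0.22). Orm2 and Lrg1, acute phase plasma proteins, rose by 2.35 (SE 0.38) and 1.63 (SE 0.25). Ephb6, an ephrin receptor without kinase activity, held 83.2, 65.0, 54.8 and 44.2 CPM against 10.6 to 34.2 CPM. Agps, of ether lipid synthesis, and Aox1, aldehyde oxidase, rose by 1.18 (SE 0.16) and 1.24 (SE 0.21), and only Aox1 overlapped with the other groups. Values of Orm2, Gsta3 and Aox1 are uncertain where close copies share reads.

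Agt and Faah were lower in NCD control under every setting. Agt, angiotensinogen, held 141, 112, 104 and 95.3 CPM against 162 to 287 CPM, a log2 fold change of -0.85 (SE 0.12). Faah, which breaks down fatty acid amides, held 5.39 to 7.25 CPM against 8.98 to 17.1 CPM, a change of -0.78 (SE 0.13). Serpina11 and Prss53 had the largest negative fold changes, -1.32 (SE 0.28) and -1.29 (SE 0.17). Serpina11, a serpin gene, was not called in 8 of the 24 other settings, among them without NCD control 3 (adjusted p = 0.0919 in edgeR). It held 1.90 ± 0.598 CPM, with 2.53 ± 0.787 CPM in NCD metformin, 6.48 ± 1.19 CPM in HFD control and 6.58 ± 2.80 CPM in HFD metformin. Prss53, a protease gene, was not called in 1 of them and held 2.998 ± 0.297 CPM, close to the 2.93 ± 0.885 CPM of HFD control and below the 13.3 ± 0.711 CPM of NCD metformin.

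**Figure D5:**
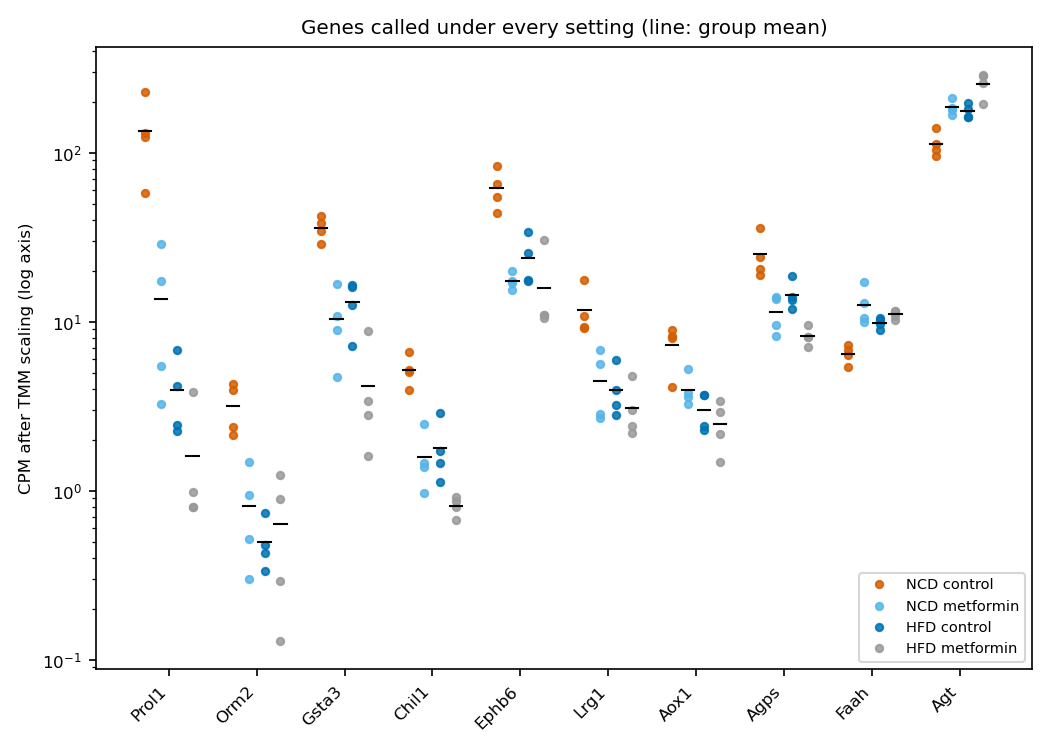
CPM after scaling, on a log axis, of the 10 genes called in every setting, with 1 point per library and a line at each group mean. For Prol1 the 4 NCD control libraries lie at 57.9 to 228 CPM, above all others, and for Agt and Faah they lie below.

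Over all function lists 9 genes were called higher and 4 lower of 852 tested. Over all genes tested the shares were 0.616% higher and 0.208% lower. Of 5 caseins and 12 whey proteins tested, 1 was called, Prol1, and the median log2 fold changes of the lists were -0.22 and 0.03, beside 0.0046 over all genes tested. Acute phase and innate defence genes held 0.0865%, 0.0728%, 0.0838% and 0.0904% of TPM, all above the 0.0227 to 0.0608% of the other 12 libraries. Lcn2 made up most of these sums, with a mean of 628 TPM of 833 TPM. Of 13 tested 2 were called higher, Lcn2 and Chil1, with a list median of 0.65. Orm2 and Lrg1, also called higher, are not among the genes of this list. Lcn2, an iron-siderophore binding defence protein, held 656, 611, 603 and 738 CPM against 154 to 524 CPM, a change of 1.05 (SE 0.22, adjusted p = 0.0304), and was not called in 7 of the 24 other settings, among them without NCD control 3 (adjusted p = 0.0789 in edgeR). Saa1 and Saa2 were high in NCD control 3 only, at 31.8 and 23.9 TPM.

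Of 13 mitochondrial genes tested 4 were called lower, beside 0.208% of all genes tested. They were mt-Co1 by -0.52 (SE 0.07), mt-Co3 by -0.44 (SE 0.09), mt-Atp8 by -0.42 (SE 0.08) and mt-Atp6 by -0.36 (SE 0.07). The list median was -0.24. Group means of mt-Co1 were 6154 ± 531 CPM in NCD control, 6714 ± 793 CPM in HFD control, 10555 ± 563 CPM in NCD metformin and 9658 ± 81.6 CPM in HFD metformin (SD, n = 4). The difference between the 2 groups without metformin was not tested. Nuclear copies of mitochondrial genes can share reads with them. Under scaling by library size, which moved the median of all genes to 0.16, mt-Co1 stayed called and the other 3 did not. Without NCD control 3 mt-Co1 was again called, while mt-Atp8, mt-Co3 and mt-Atp6 were not, with adjusted p-values in edgeR of 0.0529, 0.0554 and 0.0919. Over the 24 other settings mt-Atp8 lost its call in 6, mt-Co3 in 7, mt-Atp6 in 10 and mt-Co1 in 1. Of 10 p53 target genes tested 2 were called higher, beside 0.616% of all genes tested. They were Ccng1 by 0.58 (SE 0.09) and Cdkn1a by 1.279 (SE 0.25). Without NCD control 3 Ccng1 was still called and Cdkn1a was not (adjusted p = 0.0716 in edgeR). Cdkn1a encodes p21, which holds cells back from division. Ccng1 held 28.2 ± 2.73 CPM in NCD control and 29.4 ± 2.79 CPM in HFD control. For Cdkn1a NCD control at 17.4 ± 5.42 CPM and HFD control at 17.4 ± 6.38 CPM had like means, against 2.51 ± 1.29 CPM in NCD metformin.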

How the data were processed

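RNA of 16 libraries was measured by sequencing, and the 4 NCD control libraries are described. Per the labels' protocols, the RNeasy Mini kit gave the RNA and an NEBNext Ultra II Directional kit the libraries. The authors deposited Salmon tables, which hold, per the file headers, TPM and an estimated count of reads per transcript. Salmon 1.3.0, DESeq2 1.28.1 and GRCm38.p6 are named, without a role, in the submitters' processing notes. Options for strand, bias and duplicate sequences were not found in the labels or headers. Listed lengths equalled the coding length within 3 bases for 56929 of 56929 transcripts compared, so untranslated regions and noncoding genes are not measured, and TPM of short coding sequences rests on a small effective length. The TPM of Tmsb4x rests on 3.61 bases.

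Values of 57452 of 58204 transcripts were summed to 22196 GENCODE M21 genes, ignoring version numbers. The other 752 transcripts, with 0.194 to 0.212% of counts in the NCD control libraries, were left out. Estimated counts were rounded. The test was edgeR 4.0.16 (R 4.3.3) with limma 3.58.1, quasi-likelihood, 4 group means over 16 libraries, filterByExpr, TMM scaling and two-sided p-values, with 12 residual degrees of freedom. The test was checked on simulated counts. A floor of 3 counts is 0.0945 to 0.104 CPM, and depth limits cover counting error only. Alternatives were DESeq2 1.42.0 size factors and its Wald test, other filters, designs and scalings, and leaving out each library. Named genes are the 30 highest mean TPM, up to 5 per list, 24 by SD at each of 2 level minimums and 24 by the lowest leave-one-out SD. Others are the 12 lowest SD and up to 12 called in each direction by fold change. The called ones had a mean of at least 1 CPM over 16 libraries. Clone names were left out. Tables were computed with Python 3.11.15 and pandas 2.3.3. The members, the gene lists (28 of function, 20 of cell types) and the rules were chosen with earlier results of these data known.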

Additional observations from a re-analysis of the deposited data

Results flagged for a closer look

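Of 80 values tested over the 4 libraries (list shares and sums, the 30 most abundant genes and the number of genes detected), 5 had 1 library far from the other 3 by Dixon's 95% criterion. Chance gives about 1 in 20. Skeletal muscle markers summed to 1570 TPM in NCD control 3 and to 4.62 to 17.4 TPM in the others. Pericyte and vascular smooth muscle markers summed to 19.9 TPM in the same library and to 5.21 to 6.95 TPM in the others. Fibroblast and matrix markers were lowest in NCD control 2, at 79.2 TPM against 92.9 to 94.3 TPM. Csn2 was highest in NCD control 4, at 142859 TPM against 111044 to 116019 TPM. Genes of glucose uptake and lactose synthesis were also highest there, at 0.0228% of TPM against 0.0162 to 0.0170%.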

How the results depend on the processing

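The count of 103 called genes became 339 with library size only, 166 without a low count filter, 36 with the other 12 libraries as 1 group, 43 with a title number term and 205 by the DESeq2 Wald test. It was 105 with DESeq2 size factors. The title number term split the series into lower and higher title numbers, with NCD control 4 alone of its group among the higher. Leaving out 1 library gave 34 to 129 calls, lowest without NCD control 3, and 60 without NCD control 1. The higher share of calls was 74.8%, and 97.3% with library size only, 83.7% without a filter, 57.6% by the Wald test, 83.3% with 1 group of 12 and 89.4% without NCD control 2. With 1 library left out the log2 fold change ran from -2.12 to 7.98 for Actn3, -0.21 to 7.33 for Ckm, -1.12 to 7.38 for Mybpc2, -0.42 to 6.98 for Ryr1 and -0.040 to 6.78 for Ttn, lowest and reversed without NCD control 3. The milk protein share was 71.0% of counts and 82.9% without mitochondrial genes, and 80.7 to 81.4% with 1 library left out. The share of the 10 most abundant genes was 70.7% of counts, 80.1% per base of full coding length, an alternative chosen after seeing the data, and 83.1% without mitochondrial genes, and 80.9 to 81.6% with 1 library left out. Genes detected at 1 TPM in all 4 libraries numbered 7780, and 3427 at 5 TPM. Genes with an SD over 1 numbered 270, then 107 at a mean of 5 CPM, and 115 to 332 with 1 library left out. Of shares of the other lists, 46 of 77 values under another unit or gene set moved beyond 1 SD. Where no construction shows it, the cause was not tested. No paired analysis was possible because the labels give no replicate numbers shared between groups.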
